A study of Mus musculus with 8 samples.

Results

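The mitochondrial ribosomal protein genes are the nuclear genes named Mrpl (large subunit) or Mrps (small subunit). Of the 27594 genes in the count table, 81 carried such a name followed by a digit. The 4 of them named as pseudogenes were left out, none of the rest fell under 50 counts summed over the libraries, and 77 members remained, 48 named Mrpl and 29 named Mrps. The rule used names and a minimum count, and no difference between groups. All 77 are protein-coding genes with the same symbol in the GENCODE M21 annotation.

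The libraries are RNA-seq of YFP+ CD4+ regulatory T (Treg) cells that were sorted from spleen and peripheral lymph nodes of C57BL/6 mice of 6 to 8 weeks. Resting Treg (rTreg) cells were sorted as CD44low and activated Treg (aTreg) cells as CD44high, within a gate on a further surface marker. WT mice carried Foxp3-YFP-Cre alone. Foxp1 cKO mice carried Foxp1 fl/fl with the same Foxp3-YFP-Cre, which expresses a fusion of YFP and Cre recombinase under Foxp3 control, so the Cre and the reporter are shared by both genotypes and deletion is limited to cells that express Foxp3. Each of the 4 groups (WT rTreg, Foxp1 cKO rTreg, WT aTreg and Foxp1 cKO aTreg) had 2 libraries, numbered 1 and 2. The labels do not say how the replicates were taken. Xist, given with the library checks, differed between the replicates of every group, so they came from different mice. The tests fitted the replicate number as a block, which removes the difference between replicates 1 and 2 that all groups share. The p-values thus measure the spread that is left, pooled over the 4 groups, and not the whole spread between mice.

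The mitochondrial ribosome makes the few proteins that mitochondrial DNA encodes, all of them parts of the oxidative phosphorylation complexes. Its ribosomal RNAs come from mitochondrial DNA, whereas its proteins are encoded in the nucleus, translated in the cytosol and imported. Some of these proteins descend from bacterial ribosomal proteins and others are found only in mitochondrial ribosomes. T cells build up mitochondrial translation when they leave quiescence, and the comparisons here ask how the genes for these proteins differ between resting and activated Treg cells and with the loss of Foxp1, a forkhead transcription factor.

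By function, 29 members were placed as bacterial-type and 20 as mitochondria-specific large-subunit proteins, and 16 and 10 in the same classes of the small subunit. Mrps30 and Mrps18a, which keep a small-subunit name but sit in the large subunit, were counted with the large subunit. Mrpl55 and Mrps36 were on none of the class lists, so they were left unplaced and out of the sums by subunit.

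Of the 6 members that rose in Foxp1 cKO rTreg cells (below), 5 had a promoter in the RefSeq table of GRCm38.p6, namely Mrpl57, Mrpl21, Mrpl43, Mrps21 and Mrps23. Their sequence from 120 bases before to 30 after the start site is shown because each of the 5 holds the core of an ETS-family motif, CCGGAAG on either strand. The motif is in capitals and the gene reads 5′ to 3′.
Mrpl57, chr14:57826119-57826268, plus strand: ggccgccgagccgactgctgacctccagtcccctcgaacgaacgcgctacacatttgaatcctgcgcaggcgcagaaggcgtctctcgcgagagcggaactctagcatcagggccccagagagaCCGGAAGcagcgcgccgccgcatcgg
Mrpl21, chr19:3282922-3283071, plus strand: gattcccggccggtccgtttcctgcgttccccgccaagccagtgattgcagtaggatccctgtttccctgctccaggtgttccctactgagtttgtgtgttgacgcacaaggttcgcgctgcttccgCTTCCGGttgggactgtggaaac
Mrpl43, chr19:45006413-45006562, minus strand: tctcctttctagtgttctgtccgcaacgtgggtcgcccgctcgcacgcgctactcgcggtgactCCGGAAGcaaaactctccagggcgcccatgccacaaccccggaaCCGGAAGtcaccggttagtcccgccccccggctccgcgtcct
Mrps21, chr3:95871485-95871634, minus strand: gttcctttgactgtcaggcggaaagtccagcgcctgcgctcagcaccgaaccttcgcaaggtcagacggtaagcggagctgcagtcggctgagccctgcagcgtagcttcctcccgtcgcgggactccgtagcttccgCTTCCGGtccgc
Mrps23, chr11:88204268-88204417, plus strand: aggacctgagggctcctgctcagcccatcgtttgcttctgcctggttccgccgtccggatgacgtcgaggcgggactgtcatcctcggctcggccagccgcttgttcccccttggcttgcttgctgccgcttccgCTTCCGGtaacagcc
Mrpl43 held 2 copies, whose first bases lay 56 and 12 bases before the start. In the others the copy began 5 bases (Mrpl57), 8 bases (Mrpl21), 16 bases (Mrps23) and 19 bases (Mrps21) into the transcript, counted from 1 at the start site.

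Over the whole window of 250 bases before to 50 after the start, the table held promoters of 68 of the 77 members. The ETS word CCGGAAG was found in 25 of the 68 members (36.8%) and in 9.93% of all genes with a promoter. The YY1 word AAGATGGC was found in 12 members (17.6%, against 3.19% of all genes) and the NRF1 word GCGCATGC in 8 (11.8%, against 3.05%). NRF1, YY1 and ETS-family factors such as GABP are known activators of nuclear genes for mitochondrial proteins. At least 1 of these 3 words stood in 37 members (54.4%) and in 14.9% of all genes. The E-box CACGTG, the MYC core, was found in 5 members (7.35%, against 8.09%). The forkhead word TGTTTAC was found in 2 members, Mrpl40 and Mrpl44 (2.94%, against 4.05%). These are matches of letters on either strand, not measured binding sites.

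Before the members, the labels and libraries were checked. Library totals ran from 6373170 (Foxp1 cKO rTreg 1) to 15268623 counts (WT aTreg 2). Foxp1 itself was at 353 and 384 CPM (the usual counts-per-library-size unit, with library sizes corrected by TMM) in WT rTreg and 342 and 338 in Foxp1 cKO rTreg, a log2 fold change of -0.12 (SE 0.09, adjusted p = 0.460). All tests are edgeR's quasi-likelihood tests, and an adjusted p is a Benjamini-Hochberg value over all genes tested. In aTreg cells it was at 234 and 230 in WT and 126 and 102 in Foxp1 cKO (log2 fold change -1.03, SE 0.10, adjusted p = 0.00194). The gene-level counts thus fell with the label in aTreg but did not show the deletion in rTreg, where the genotype of the libraries rests on the label. The sort marker Cd44 followed the labels, at 29.6 to 45.3 CPM in rTreg and 174 to 214 in aTreg.

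Both libraries labelled Foxp1 cKO replicate 1 stood apart. Their mitochondrial ribosomal RNAs mt-Rnr1 and mt-Rnr2 summed to 28.5 and 34.1 CPM, against 671 to 885 in the other 6 libraries. At least 4-fold lower in both than in all 6 others were 15 of the 14540 genes tested, among them Hsp90aa1, Rpl12 and Rrp12. No member was even 2-fold lower in this way. Myeloid marker transcripts (10 listed, Adgre1 at or under 3 counts a library on average) summed to 22.0 and 35.3 CPM in these libraries and to 7.91 to 13.5 in the others, and 3 of them (Mpo, S100a8 and S100a9) were called higher with Foxp1 cKO in rTreg and 1 (Mpo) in aTreg. Their part in the genotype comparisons was not tested. Replicate number also went with Xist, at 0.00 to 0.276 CPM in every replicate 1 and 1142 to 1399 in every replicate 2, so the mice of the replicates differed in sex as well, which the labels do not give. Each comparison below is also given without the Foxp1 cKO replicate 1 libraries, a choice made after seeing the data. That leaves 1 library in each Foxp1 cKO group, so the median of the members is given and no calls.

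All 77 members were transcribed in both Treg subsets. The lowest count of any member in any library was 12 (Mrps18c) and 23 members had under 100 counts in some library. Scaled by length, the mean level over the 8 libraries ran from 2.07 to 55.4 CPM per kb with a median of 10.8. The highest were Mrps16 (55.4), Mrpl24 (40.9) and Mrps21 (38.6), and the lowest were Mrpl47 (2.07), Mrps22 (2.14) and Mrps25 (2.15). Mrps16 and Mrps21 are bacterial-type proteins of the small subunit, and Mrpl24 and Mrpl47 bacterial-type proteins of the large subunit. The length is the one behind the deposited FPKM values. It was 566 bases for Mrps16, whose merged exons in GENCODE M21 span 2875 bases, and with the latter its level was 10.9 CPM per kb, rank 33 of 77. For 64 of the 77 members the lengths were equal. The 3 lowest members had long merged exons, of 3991 bases (Mrps22), 4419 bases (Mrpl47) and 6576 bases (Mrps25). By merged exons Mrps30 was also among the lowest, at 2.08 CPM per kb over 6666 bases, against 8.72 over the 1590 bases behind its FPKM.

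**Figure D1:**
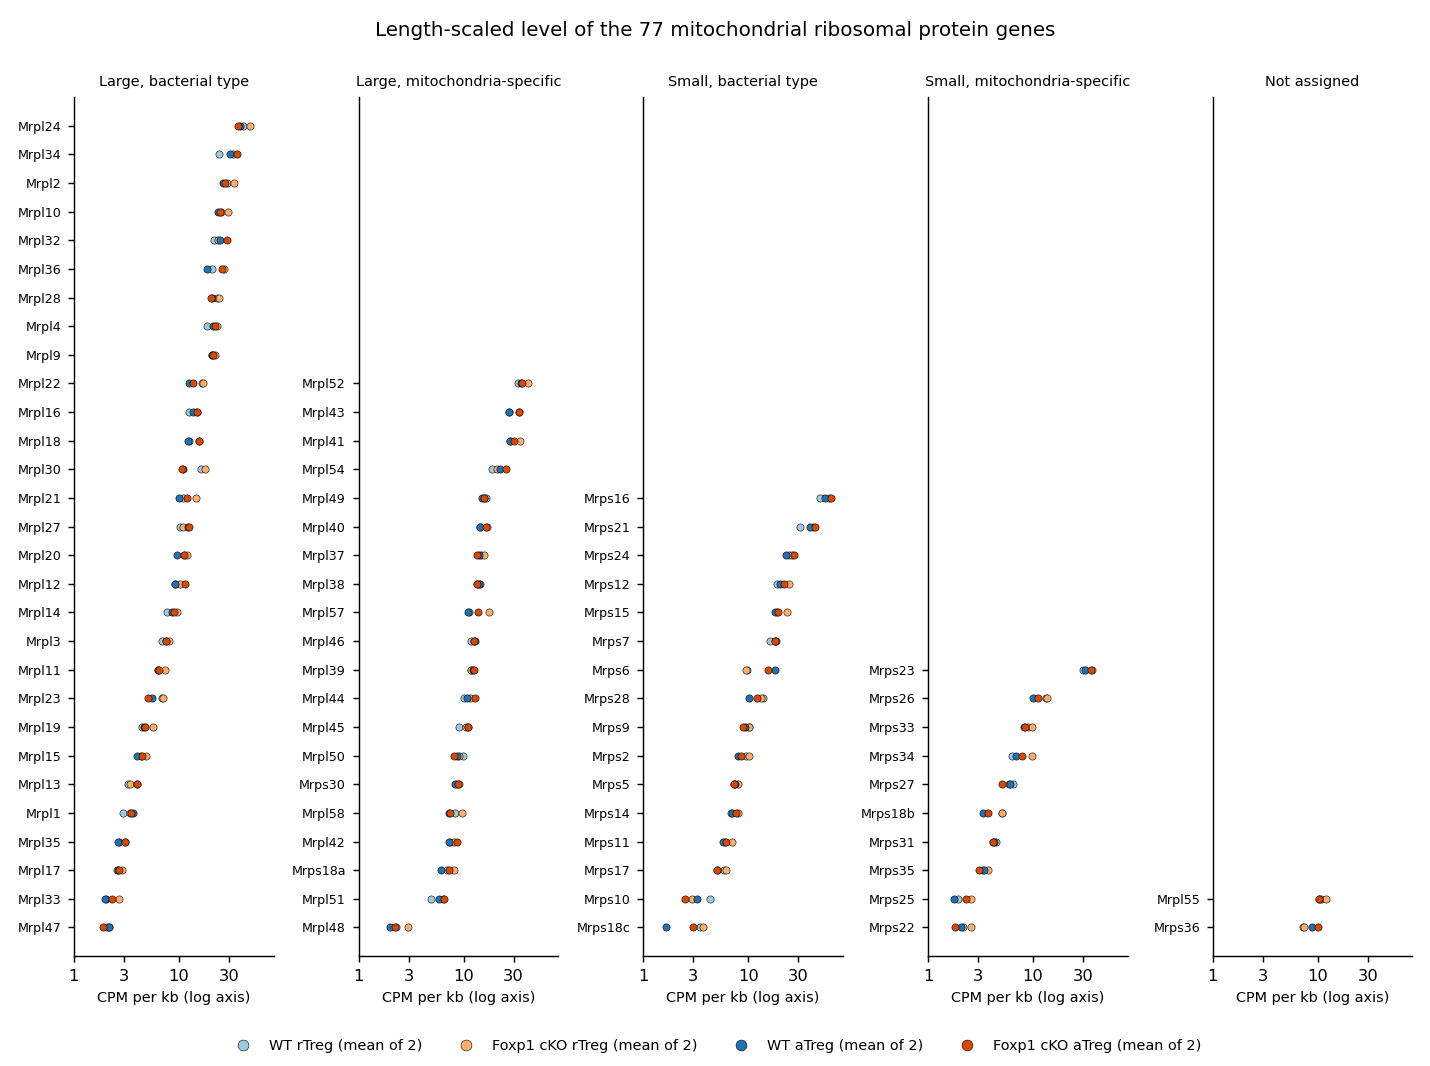
Level of each of the 77 members in CPM per kb of transcript (log axis), by subunit and class; each point is the mean of 2 libraries of 1 group. The members span 2.07 to 55.4 on average, and the 4 groups of a gene lie close together next to that span.

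Summed over the members, WT rTreg libraries held 1988 and 1968 CPM and Foxp1 cKO rTreg libraries 2168 and 2300 CPM. WT aTreg libraries held 1935 and 1934, and Foxp1 cKO aTreg libraries 2063 and 2006. In both subsets each Foxp1 cKO library lay above both WT libraries. The mean sum was 13.0% higher with Foxp1 cKO in rTreg (9.08% in replicate pair 1, 16.9% in pair 2) and 5.16% higher in aTreg (6.63% and 3.70%). Between subsets it was 2.19% lower in WT aTreg than WT rTreg and 8.95% lower in Foxp1 cKO aTreg than Foxp1 cKO rTreg. No test was made of these sums. In bulk libraries, fewer cells that express a gene and less of its RNA in each cell cannot be told apart.

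The difference was seen in both subunits. The 49 large-subunit genes summed to 1310 and 1286 CPM in WT rTreg and 1449 and 1536 in Foxp1 cKO rTreg, 14.9% higher in the mean. The 26 small-subunit genes went from 658 and 660 to 699 and 741, 9.25% higher. The ratio of large to small sums was 1.99 and 1.95 in WT rTreg and 2.07 and 2.07 in Foxp1 cKO rTreg, with no overlap. In aTreg it was 2.03 and 2.04 in WT and 2.05 and 2.08 in Foxp1 cKO, also with no overlap. The ratios were not tested.

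The 20 cell-cycle markers moved in the same comparisons. They summed to 406 and 406 CPM in WT rTreg, 640 and 695 in Foxp1 cKO rTreg, 556 and 703 in WT aTreg and 999 and 1178 in Foxp1 cKO aTreg. In rTreg, 17 of the 20 were called higher with Foxp1 cKO, and in aTreg 18. Their part in the members' levels was not tested. The order of the groups differed between the sums, since the cell-cycle markers were highest in Foxp1 cKO aTreg and the members in Foxp1 cKO rTreg.

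**Figure D2:**
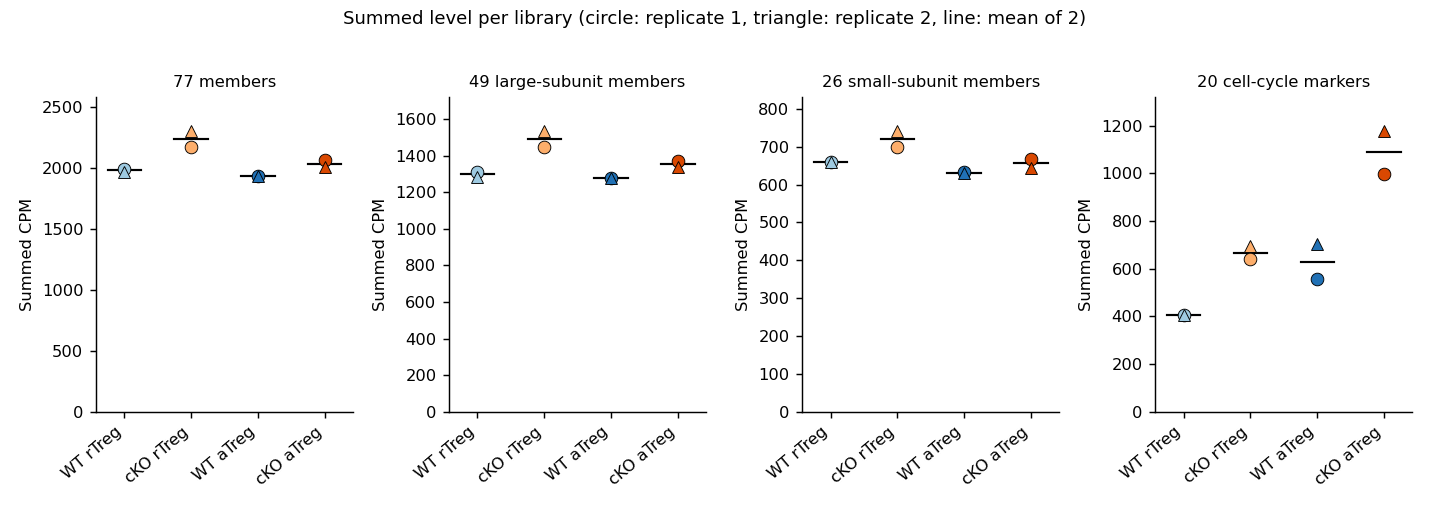
Summed TMM-scaled CPM per library of all members, of the large-subunit and small-subunit members and of 20 cell-cycle markers in the 4 groups. The members' sum is highest in Foxp1 cKO rTreg (2168 and 2300), the cell-cycle sum in Foxp1 cKO aTreg (999 and 1178).

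The first comparison asks what the loss of Foxp1 changed in resting Treg cells. In the rTreg libraries labelled Foxp1 cKO, 6 of the 77 members (7.79%) were called higher than in WT at an adjusted p under 0.05, and none lower. Of all 14540 genes tested, 6.57% were called higher and 5.45% lower, so the share of members called higher was near the background. The direction over all 77 members, called or not, was uneven. The log2 fold change was above 0 for 70 of the 77 members, with a median of 0.18, against 50.4% of all genes and a median of 0.0029. In 56 members (72.7%) both replicate pairs were higher, against 35.3% of all genes. At an unadjusted p under 0.05, 24 members were higher and 0 lower, against 2157 and 1991 of the 14540 genes. No test over the members as a set was made.

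The class medians in rTreg were 0.19 for bacterial-type and 0.20 for mitochondria-specific large-subunit genes, 0.11 for bacterial-type and 0.15 for mitochondria-specific small-subunit genes. All 29 bacterial-type large-subunit genes had a log2 fold change above 0, from 0.05 to 0.46. For the 25 members with the ETS word the median was 0.26, and for the 43 with a promoter but without it 0.11. For the other words the medians with and without were 0.10 and 0.20 for NRF1, 0.16 and 0.19 for YY1, 0.12 and 0.19 for the E-box and 0.21 and 0.18 for the forkhead word. These splits were not tested.

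Mrpl57, a small mitochondria-specific protein of the large subunit (chr14:57826234-57829296, GRCm38), was at 29.2 and 23.0 CPM in WT rTreg and 45.4 and 36.5 in Foxp1 cKO rTreg. The groups did not overlap, and the gene was 1.57-fold higher with Foxp1 cKO (log2 fold change 0.65, SE 0.10, adjusted p = 0.00825). In aTreg it was at 26.2 and 25 in WT and 33.7 and 30.7 in Foxp1 cKO (log2 fold change 0.32, SE 0.10, adjusted p = 0.102).

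Mrps34, a mitochondria-specific protein that the small subunit needs for its stability (chr17:24895116-24897502), was at 14.6 and 11.2 CPM in WT rTreg and 22.8 and 17.8 in Foxp1 cKO rTreg. It was 1.57-fold higher as well (log2 fold change 0.65, SE 0.12, adjusted p = 0.0133), again without overlap. In aTreg the values were 16.6 and 11.9 in WT and 18.3 and 14.2 in Foxp1 cKO, which overlapped. Of its exon bases, 77.8% are shared with exons of Nme3 on the same strand or Mapk8ip3 on the other, and the sources used here do not say whether reads were counted by strand, so its value is uncertain. Mapk8ip3 had a log2 fold change of -0.07 in rTreg (SE 0.06, adjusted p = 0.488). No value was at hand for Nme3, so the same-strand overlap, 36.97% of the exon bases, could not be checked.

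These 2 were the only members called higher by at least 1.5-fold, 2.60% of the members, against 2.90% of all genes. The other 4 called members rose less.

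Mrpl21, the counterpart of bacterial L21, was at 23.7 and 20.5 CPM in WT rTreg and 30.3 and 28.2 in Foxp1 cKO rTreg (log2 fold change 0.41, SE 0.10, adjusted p = 0.0402). Mrps21, the counterpart of bacterial S21, was at 23.8 and 22.4 and at 27.9 and 33.5 (log2 fold change 0.42, SE 0.11, adjusted p = 0.0456). Both were without overlap between genotypes. Mrpl43, a mitochondria-specific large-subunit protein, was at 33.2 and 31.97 in WT and 44.0 and 38.3 in Foxp1 cKO (log2 fold change 0.33, SE 0.08, adjusted p = 0.0446). Mrpl43 shares 33.4% of its exon bases with Twnk, the mitochondrial DNA helicase, on the other strand, and Twnk had a log2 fold change of -0.08 in rTreg. Mrps23, a mitochondria-specific small-subunit protein, was at 46.9 and 47.4 in WT and 55.1 and 57.6 in Foxp1 cKO (log2 fold change 0.26, SE 0.07, adjusted p = 0.0464). Its replicates were the closest of the 6, with an SD of 0.349 CPM around 47.1 in WT and 1.71 around 56.4 in Foxp1 cKO (n = 2 each).

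Of the 6 calls, 4 had an adjusted p between 0.0402 and 0.0464. Without the replicate block, none of the 6 was called (adjusted p = 0.0992 for Mrpl57 and 0.245 for Mrps34). Calls over all genes fell as well, to 181 higher without the block from 956 with it. Without both Foxp1 cKO replicate 1 libraries the median was 0.22. It was 0.17 without WT rTreg 1, 0.16 without WT rTreg 2, 0.22 without Foxp1 cKO rTreg 1 and 0.11 without Foxp1 cKO rTreg 2. Each fit without a single rTreg library leaves 1 library in a group. Fewer members and fewer of all genes were called higher in each of these single-library fits. Fewer members were also called higher with any 1 aTreg library left out.

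At the other end stood Mrps10, a bacterial-type small-subunit protein, which was singled out after its values were seen. It was at 26.4 and 43.3 CPM in WT rTreg and 23.9 and 23.3 in Foxp1 cKO rTreg (log2 fold change -0.56, SE 0.29, adjusted p = 0.247). The WT libraries differed from each other by more than the lower of them from either Foxp1 cKO library. Mrps10 was the 1 member called lower when no filter on low counts was applied.

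**Figure D3:**
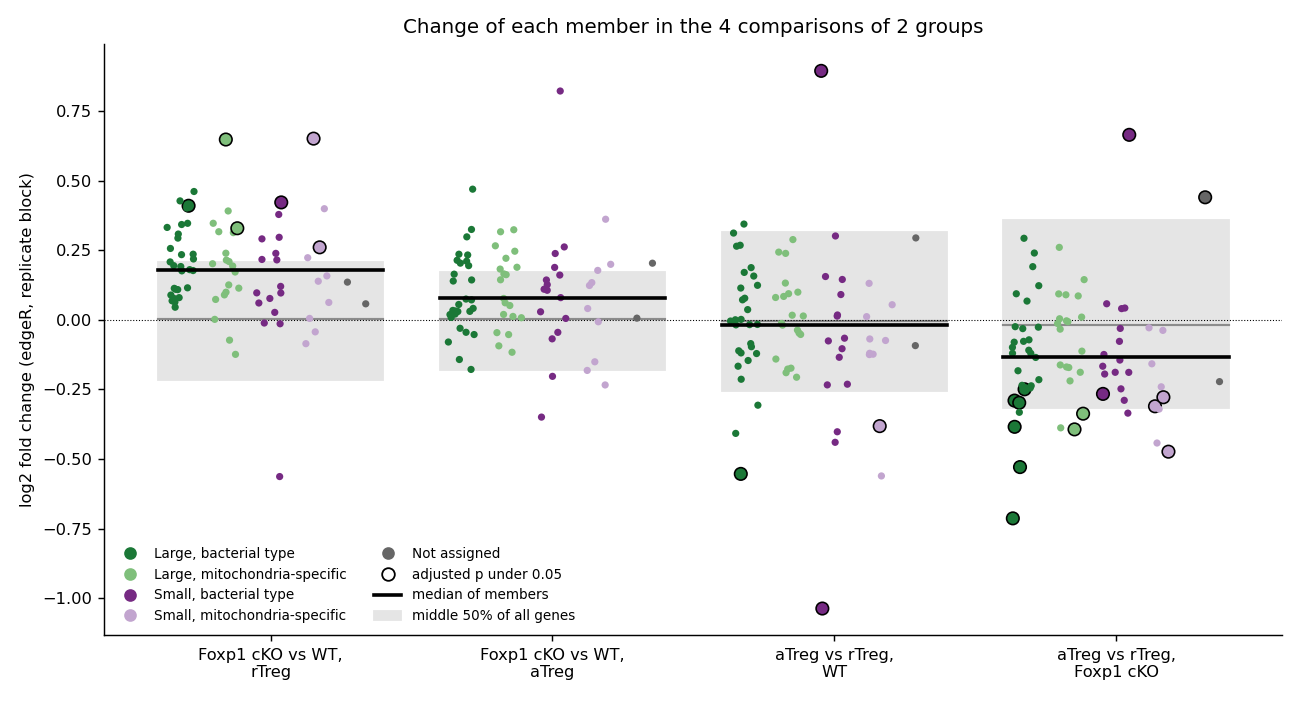
log2 fold change of each member (points, coloured by class, outlined where the adjusted p was under 0.05) in the 4 comparisons, with the members' median (black line) and the middle 50% (grey band) and median (grey line) of all 14540 genes tested. In Foxp1 cKO against WT rTreg 70 of 77 points lie above 0, and in Foxp1 cKO aTreg against rTreg 59 lie below.

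The same question in activated Treg cells gave no called member, in either direction, by edgeR. Of all genes, 4.11% were called higher and 2.77% lower. At an unadjusted p under 0.05, 9 members were higher and 0 lower, against 1879 and 1506 of the 14540 genes, so the members' share higher was not above that of all genes. limma-voom and DESeq2 also called 0 members. The log2 fold change was above 0 for 59 of the 77 members, with a median of 0.08 against 0.0018 over all genes. Both replicate pairs were higher in 43 members (55.8%, against 33.3% of all genes). Without both Foxp1 cKO replicate 1 libraries the median was 0.09.

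The member with the smallest adjusted p in aTreg was Mrpl43, at 35 and 31.2 CPM in WT and 41.4 and 40.7 in Foxp1 cKO (log2 fold change 0.32, SE 0.08, adjusted p = 0.0629). Its groups did not overlap, and its fold change in aTreg was close to that in rTreg. Twnk, the gene it shares exon bases with, fell in the same comparison (log2 fold change -0.57, SE 0.09, adjusted p = 0.0122). Mrps18c, the mitochondrial counterpart of bacterial S18, had the highest log2 fold change, 0.82 (SE 0.25, adjusted p = 0.103). It rests on low values, 1.32 and 2.24 CPM in WT and 2.77 and 3.59 in Foxp1 cKO.

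The difference between the genotype effects of the subsets was tested directly. No member was called, with 0.186% of all genes called higher and 0.144% lower, and at an unadjusted p under 0.05 there were 0 members higher and 3 lower, against 975 and 887 of the 14540 genes. The 3 were Mrpl24, Mrps34 and Mrps35, a share no larger than that of all genes. limma-voom and DESeq2 called 0 here too. Without both Foxp1 cKO replicate 1 libraries 13 members lay above 0 and the median was -0.17. With all libraries the log2 effect was larger in rTreg than in aTreg for 56 of the 77 members, and the median difference, aTreg minus rTreg, was -0.13. By replicate pair the median difference was -0.01 in pair 1 and -0.18 in pair 2, so most of it lay in pair 2. The 2 genotype comparisons used separate libraries, but these were not independent between subsets. Deviations of replicates with the same number correlated at 0.567 between the WT subsets and 0.518 between the Foxp1 cKO subsets. Of the 77 members, 57 were above 0 in both comparisons, 5 below 0 in both, 13 above in rTreg alone and 2 above in aTreg alone. All 4 replicate pairs were higher in 34 members (44.2%), against 18.7% of all genes.

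**Figure D4:**
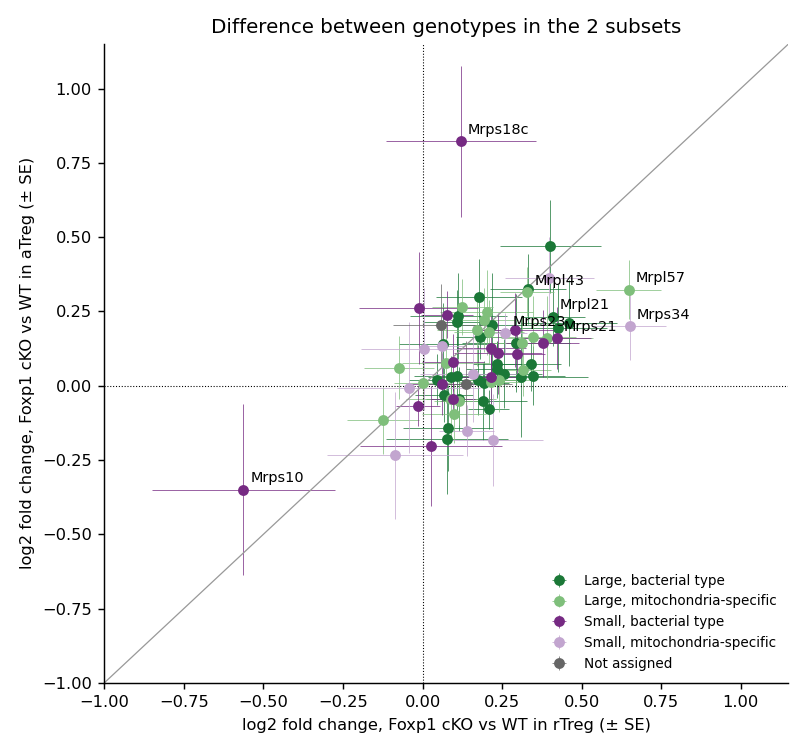
log2 fold change of each member between Foxp1 cKO and WT in rTreg (horizontal) and aTreg (vertical), each with its SE; the 6 members called in rTreg, Mrps18c and Mrps10 are named, and the grey line marks equal effects. Of 77 members, 57 lie above 0 on both axes and 56 lie below the line of equal effects.

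The next comparisons ask how activated differed from resting Treg cells within a genotype. In WT, 1 member was called higher in aTreg, Mrps6, and 3 lower, Mrpl30, Mrps26 and Mrps18c. Of all genes, 18.2% were called higher and 13.6% lower, against 1.30% and 3.9% of the members. The median log2 fold change was -0.02, against -0.0046 over all genes, and 34 members lay above 0 and 43 below. Both pairs were lower in 29 members (37.7%, against 39.8% of all genes). Without both Foxp1 cKO replicate 1 libraries the median was -0.01. It was -0.01 without WT rTreg 1, -0.02 without WT rTreg 2, -0.02 without WT aTreg 1 and -0.03 without WT aTreg 2. With no replicate block 0 members were called higher and 1 lower, against 1613 and 760 of the 14540 genes.

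Mrps6, the counterpart of bacterial S6, was at 8.29 and 12.02 CPM in WT rTreg and 19.97 and 17.8 in WT aTreg, 1.86-fold higher (log2 fold change 0.89, SE 0.21, adjusted p = 0.0149). In Foxp1 cKO it was at 7.81 and 12.4 in rTreg and 16.4 and 16.2 in aTreg (log2 fold change 0.66, SE 0.22, adjusted p = 0.0419). The subsets did not overlap in either genotype. Mrps6 shares 19.9% of its exon bases with Gm49711 and Slc5a3 on the same strand. Slc5a3, a myo-inositol transporter gene, was also higher in aTreg, by 0.78 on the log2 scale in WT (SE 0.22, adjusted p = 0.0287).

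Mrpl30, the counterpart of bacterial L30, was at 55.5 and 49.2 CPM in WT rTreg and 33.0 and 38.2 in WT aTreg (log2 fold change -0.55, SE 0.11, adjusted p = 0.00588). Its Foxp1 cKO values were 53.1 and 60.2 in rTreg and 32.6 and 36.6 in aTreg (log2 fold change -0.71, SE 0.11, adjusted p = 0.00134). It shares no exon bases with another gene. It was lower in aTreg in all 4 replicate pairs, and in Foxp1 cKO it stayed called under every one of the 19 alternatives with a test.

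Mrps26, a mitochondria-specific small-subunit protein, was at 62.7 and 52.2 CPM in WT rTreg and 46 and 41.99 in WT aTreg (log2 fold change -0.38, SE 0.07, adjusted p = 0.00587). In Foxp1 cKO it was at 61.5 and 57.9 in rTreg and 49.7 and 46.7 in aTreg (log2 fold change -0.31, SE 0.07, adjusted p = 0.0114). The aTreg libraries lay below the rTreg libraries in both genotypes.

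Mrps18c was the 1 member called lower by at least 2-fold in WT aTreg, 1.30% of the members, against 2.83% of all genes. It was at 3.22 and 4.16 CPM in WT rTreg and 1.32 and 2.24 in WT aTreg (log2 fold change -1.04, SE 0.25, adjusted p = 0.0172). In Foxp1 cKO it was at 3.35 and 4.69 in rTreg and 2.77 and 3.59 in aTreg, which overlapped. It has the lowest CPM of the members, and 23.2% of its exon bases are shared with Gm43511 on the same strand. Mrps18b, one of its 2 paralogues, was at 11.5 and 9.58 in WT rTreg and 5.82 and 8.27 in WT aTreg (log2 fold change -0.56, SE 0.20, adjusted p = 0.0696). Mrps18a, the other paralogue, had a log2 fold change of -0.19 (SE 0.11, adjusted p = 0.223).

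In Foxp1 cKO, 2 members were called higher in aTreg than in rTreg (Mrps6 and Mrps36) and 12 lower. Of all genes, 21.9% were called higher and 18.2% lower, so that 2.60% and 15.6% of the members were called. The log2 fold change was below 0 for 59 of the 77 members with a median of -0.14, against -0.018 over all genes, and both pairs were lower in 43 members (55.8%, against 42.0% of all genes). All 10 mitochondria-specific small-subunit genes lay below 0, with a median of -0.28. This comparison shares the Foxp1 cKO rTreg libraries with the first, so a high value there raises one and lowers the other. Without both Foxp1 cKO replicate 1 libraries the median was -0.21. It was -0.16 without Foxp1 cKO rTreg 1, -0.08 without Foxp1 cKO rTreg 2, -0.17 without Foxp1 cKO aTreg 1 and -0.09 without Foxp1 cKO aTreg 2. Whichever single library was left out, fewer members and fewer of all genes were called lower. With no replicate block 0 members were called higher and 2 lower, against 2155 and 1327 of the 14540 genes.

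The 12 lower members were Mrpl30 and Mrps26 (above), Mrpl24, Mrpl23, Mrpl58, Mrpl57, Mrpl10, Mrps35, Mrps15, Mrps22, Mrpl2 and Mrpl21. Mrpl24, the member with the most counts, was at 101 and 114 CPM in Foxp1 cKO rTreg and 79.1 and 85.2 in Foxp1 cKO aTreg (log2 fold change -0.38, SE 0.07, adjusted p = 0.00262). In WT it was at 90.3 and 95.5 and at 86.9 and 86.8 (log2 fold change -0.10, SE 0.07, adjusted p = 0.300). It shares 26.3% of its exon bases with Rrnad1 on the other strand, a gene that was at 30.4 and 21.3 CPM in the Foxp1 cKO replicate 1 libraries and 50.6 to 67.2 in the others.

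Mrpl58, a peptidyl-tRNA hydrolase that frees stalled mitochondrial ribosomes and is also part of the large subunit, was at 31.6 and 33.1 CPM in Foxp1 cKO rTreg and 24.7 and 24.7 in Foxp1 cKO aTreg (log2 fold change -0.39, SE 0.11, adjusted p = 0.0222). Mrpl23, whose bacterial counterpart lies at the exit of the peptide tunnel, was at 33.0 and 36.2 and at 27.2 and 21.9 (log2 fold change -0.53, SE 0.14, adjusted p = 0.0210). Neither overlapped between subsets. Mrpl57, called higher in Foxp1 cKO rTreg, was at 33.7 and 30.7 in Foxp1 cKO aTreg (log2 fold change -0.34, SE 0.10, adjusted p = 0.0282), against 29.2 and 23.0 in WT rTreg. Mrpl10, the base of the ribosomal stalk, and Mrps35, a mitochondria-specific small-subunit protein, fell by 0.25 (SE 0.08, adjusted p = 0.0345) and 0.28 (SE 0.09, adjusted p = 0.0347) on the log2 scale.

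Mrps36 rose in Foxp1 cKO aTreg. It carries a mitochondrial ribosome name, but its protein is known as a component of the 2-oxoglutarate dehydrogenase complex. It was at 8.13 and 10.8 CPM in Foxp1 cKO rTreg and 12.4 and 13.4 in Foxp1 cKO aTreg (log2 fold change 0.44, SE 0.14, adjusted p = 0.0437). In WT it was at 8.29 and 10.1 in rTreg and 10.3 and 12.2 in aTreg (log2 fold change 0.29, SE 0.14, adjusted p = 0.161).

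B-cell marker transcripts also went with the subset. The 8 markers summed to 8.47 to 10.997 CPM in rTreg and 33.7 to 39.5 in aTreg libraries, with Ebf1 and Ms4a1 at or under 3 counts a library on average. Their part in the subset comparisons was not tested. The 6 markers of CD8 T and NK cells summed to 11.6 to 19.4 CPM (Ncr1 at or under 3 counts a library on average) and the 6 erythroid markers to 0.867 to 4.30 CPM (the 4 globin genes at or under that count). The 7 Treg genes, Foxp3 among them, summed to 2830 to 2916 CPM in rTreg and 3575 to 4389 in aTreg. Of the 7, 2 were called higher and 3 lower with Foxp1 cKO in rTreg, Foxp3 among the lower (log2 fold change -0.32, SE 0.08, adjusted p = 0.0496), and 0 higher and 2 lower in aTreg.

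**Figure D5:**
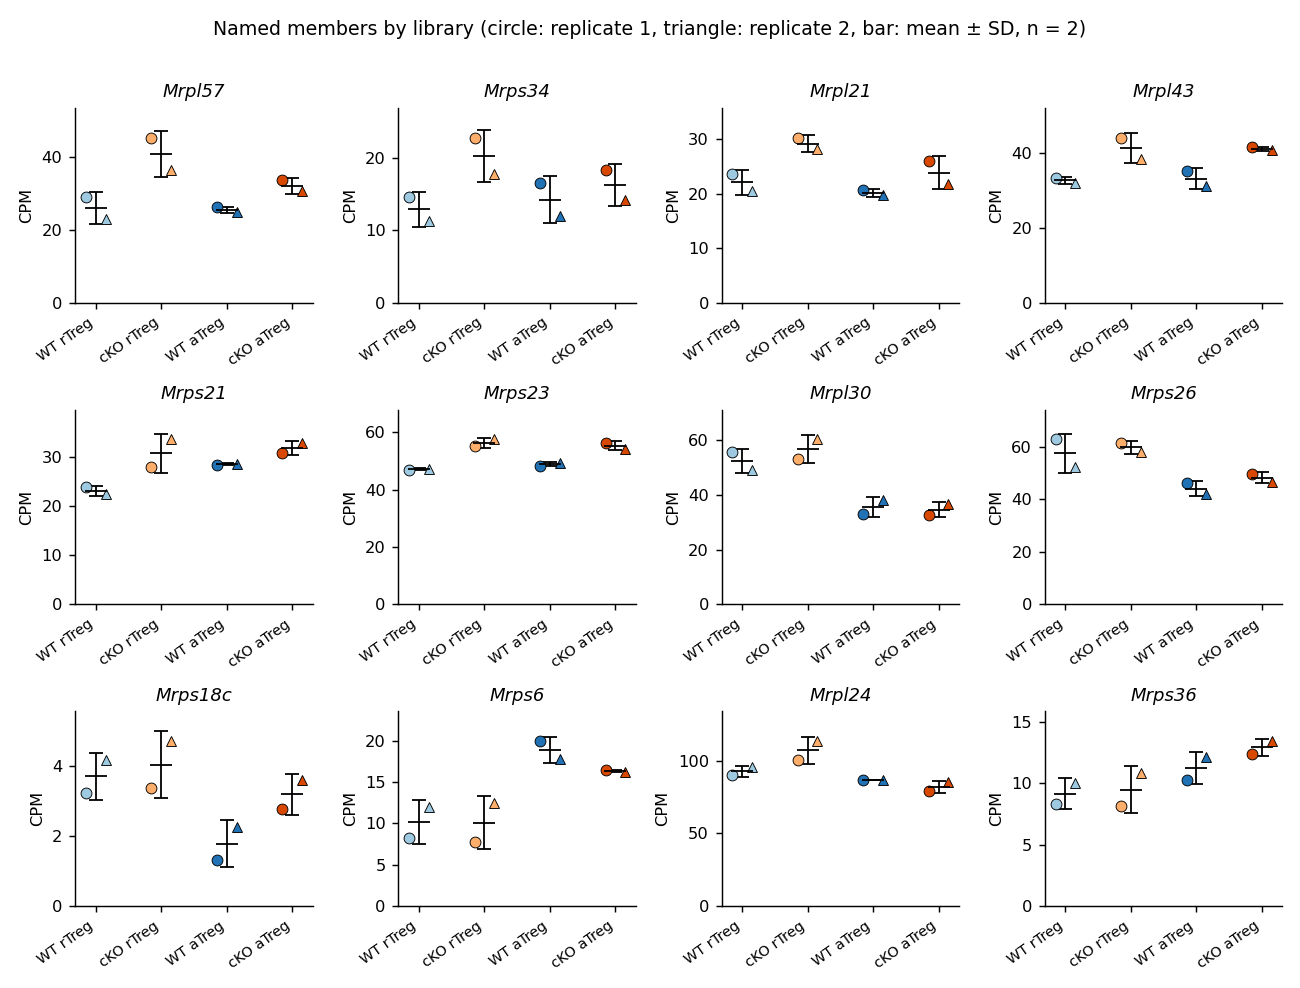
CPM of 12 named members in each library of the 4 groups, with the mean ± SD (n = 2). The 6 members called in rTreg (Mrpl57 to Mrps23) have both Foxp1 cKO rTreg libraries above both WT rTreg libraries, and Mrpl30 and Mrps26 have all aTreg libraries below all rTreg libraries.

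Some members have a role of their own, and none of those named here was called between genotypes. Mrpl12, a stalk protein that also binds the mitochondrial RNA polymerase, was at 14.4 and 14.0 CPM in WT rTreg, 14.3 and 17.3 in Foxp1 cKO rTreg, 14.4 and 14.0 in WT aTreg and 17.9 and 17.0 in Foxp1 cKO aTreg. Both Foxp1 cKO aTreg libraries lay above WT (log2 fold change 0.30, SE 0.13, adjusted p = 0.221). Mrpl11, at the base of the same stalk, had a log2 fold change of 0.26 in rTreg (SE 0.12, adjusted p = 0.206) and 0.04 in aTreg. Mrps12, at the decoding centre, was at 18.4 and 20.5 CPM in WT rTreg and 23.3 and 27.1 in Foxp1 cKO rTreg (log2 fold change 0.38, SE 0.11, adjusted p = 0.0729). Mrps30 had log2 fold changes of 0.07 in rTreg and 0.08 in aTreg, and its 8 values lay between 12.6 and 15.7 CPM. For Mrps18b the rTreg log2 fold change between genotypes was 0.0048 and its sign changed with the scaling.

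The subunit genes that carry other names were tested in the same fit. The list held 7 symbols, of which Ict1 and Mrp63 are older names of the members Mrpl58 and Mrpl57. The other 5 (Dap3, Gadd45gip1, Chchd1, Ptcd3 and Aurkaip1) were tested, and none was called between genotypes. In Foxp1 cKO aTreg, 2 of the 5 were called lower than in rTreg, Ptcd3 by 0.35 (SE 0.07, adjusted p = 0.00650) and Dap3 by 0.30 (SE 0.07, adjusted p = 0.0133) on the log2 scale. Of all genes, 18.2% were called lower there. Dap3, a GTP-binding protein of the small subunit, was at 112 and 110 CPM in Foxp1 cKO rTreg and 93.0 and 86.3 in Foxp1 cKO aTreg.

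Other steps of mitochondrial gene expression are listed by count, from lists written by hand. Of 11 translation factors tested, none was called in any of the 4 comparisons. Tufm, the elongation factor that brings tRNAs to the ribosome, was at 73.2 and 81.1 CPM in WT rTreg and 88.0 and 93.5 in Foxp1 cKO rTreg (log2 fold change 0.24, SE 0.07, adjusted p = 0.0789). Of 17 mitochondrial tRNA synthetases, 3 (17.6%, against 6.57% of all genes) were called higher with Foxp1 cKO in rTreg. Among them were Tars2 by 0.44 (SE 0.07, adjusted p = 0.00983) and Cars2 by 0.30 (SE 0.08, adjusted p = 0.0488) on the log2 scale. Tars2 was at 166 and 188 CPM in WT rTreg and 224 and 254 in Foxp1 cKO rTreg. In aTreg none was called between genotypes. Between subsets, 1 synthetase (Fars2) was called higher and 5 lower in WT, and 1 higher (Fars2 again) and 7 lower in Foxp1 cKO. Of all genes, 18.2% were called higher and 13.6% lower in WT, and 21.9% and 18.2% in Foxp1 cKO.

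Of 23 genes for assembly of the mitochondrial ribosome and modification of its RNA, none was called between genotypes. In WT aTreg 2 were called higher and 4 lower, and in Foxp1 cKO aTreg 1 and 5. That was 8.7% and 17.4% of the 23 in WT, against 18.2% and 13.6% of all genes. In Foxp1 cKO it was 4.35% and 21.7%, against 21.9% and 18.2%. Ddx28, an RNA helicase of large-subunit assembly, was higher in aTreg by 1.01 in WT (SE 0.17, adjusted p = 0.00322) and 0.95 in Foxp1 cKO (SE 0.17, adjusted p = 0.00297) on the log2 scale, whereas Rbfa, which matures the small-subunit RNA, was lower in both. Of 16 genes for mitochondrial DNA replication, transcription and RNA handling, Twnk was the 1 called between genotypes, lower in Foxp1 cKO aTreg (6.25%, against 2.77% of all genes). Polrmt, the mitochondrial RNA polymerase, was lower in WT aTreg than WT rTreg (log2 fold change -0.30, SE 0.07, adjusted p = 0.0142), and Tfam, its activator, had a log2 fold change of 0.08 there (SE 0.08, adjusted p = 0.463).

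The mRNAs that the mitochondrial ribosome translates are encoded in mitochondrial DNA. Of the 12 that were tested, none was called between genotypes in rTreg, where their median log2 fold change was 0.10. In aTreg 1 was called lower with Foxp1 cKO, mt-Nd1, by 0.22 (SE 0.05, adjusted p = 0.0496) on the log2 scale. In Foxp1 cKO aTreg 6 of the 12 were called lower than in rTreg, with a median of -0.22. Over all 13 of these mRNAs the summed level was 7612 and 7833 CPM in WT rTreg, 8392 and 8037 in Foxp1 cKO rTreg, 8088 and 7375 in WT aTreg and 7228 and 6962 in Foxp1 cKO aTreg.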

How the data were processed

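The table of counts per gene and the table of FPKM values (fragments per kilobase of transcript, scaled by library size) were deposited by the authors for the 8 libraries. The submitters' processing notes name HISAT2 2.0.5, HTSeq and the mm10 build, and libraries were made with the NEBNext Ultra RNA kit. Whether reads were counted by strand is not given in the sources used here. Counts were raw, and FPKM served for transcript lengths and as an alternative.

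Counts were analysed in R 4.3.3 with edgeR 4.0.16 (TMM scaling, filterByExpr with a minimum count of 10, quasi-likelihood test), all 8 libraries in 1 fit with the replicate number as a block, which is the paired analysis of the study's methods (there limma-voom). Of 27594 genes, 14540 were tested, among them all 77 members, and 13054 were left out. p-values were adjusted by Benjamini-Hochberg over all genes tested. Every pair of groups deviated together by replicate number (correlation of the deviations from the group means 0.344 to 0.567), and the study's methods pair the samples to offset a batch effect, so the block was kept. The fit was also run on simulated counts. These held no replicate effect and no library that stood apart, so that run cannot check the block. Confidence in low members is limited by counting error, with a floor of 3 counts at 0.196 to 0.471 CPM. Alternatives were no block, limma-voom 3.58.1, DESeq2 1.42.0, other scaling and filters, log2 of the deposited FPKM plus 1 or 0.1, removal of a length trend, and leaving out libraries.

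The members, gene lists and tests were chosen with earlier results of these data known. The text names, per comparison and direction, the 8 called members with the smallest adjusted p that moved alike in both pairs, those past 1.5-fold (genotype) or 2-fold (subset), the 3 highest and 3 lowest members by length-scaled level, members with a role of their own, and at most 4 genes of a list plus Tufm, Tfam, Polrmt and Dap3. Classes and lists were written from textbook knowledge. Promoters came from the RefSeq table of GRCm38.p6. Exon overlap was computed on GENCODE M21. A few genes of the marker and comparison lists are not reported here by name.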

Additional observations from a re-analysis of the deposited data

How the results depend on the processing

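Without the replicate block, 0 members were called higher in Foxp1 cKO rTreg, 0 higher and 1 lower in WT aTreg against rTreg, and 0 higher and 2 lower in Foxp1 cKO aTreg against rTreg. DESeq2 called 2 higher in the first comparison and 0 higher and 3 lower in the last, where limma-voom called 0 higher. Over all genes DESeq2 called 717 higher in the first comparison, and 2589 higher and 1785 lower in the last. In the last, limma-voom called 3085 of all genes higher. Limma on log2 FPKM called 3 (plus 1), 3 (plus 0.1) and 1 (plus 1, no filter) higher in Foxp1 cKO rTreg. Of all genes, 419 and 430 of 12294 and 100 of 27594 were higher there, against 956 of 14540 by edgeR. In WT aTreg limma on FPKM called 4, 4 higher with the filter and 1 lower without it. Over all genes there, 2056 and 2057 were higher with the filter and 725 lower without it. In Foxp1 cKO aTreg limma on FPKM called 5, 5 and 3 lower and, without the filter, 1 higher. Over all genes there, 1811, 1794 and 1405 were lower and, without the filter, 2638 higher. With no filter on low counts 1 member was lower in Foxp1 cKO rTreg, 1 higher in Foxp1 cKO aTreg against WT, and 1 higher and 5 lower in Foxp1 cKO aTreg against rTreg. Of 27594 genes in that fit, 1232 were lower, 1095 higher, and 3568 higher and 2326 lower, in the same order. The libraries of the comparison alone gave 3 higher and 6 lower in WT aTreg, against 2845 and 2420 of 13735 genes. Without both Foxp1 cKO replicate 1 libraries the medians were 0.22 (genotype, rTreg), 0.09 (genotype, aTreg), -0.01 (subset, WT) and -0.21 (subset, Foxp1 cKO). The cause of these differences was not tested.

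Leaving out libraries in turn gave 0 to 4 members higher in Foxp1 cKO rTreg, 0 to 2 higher and 1 to 3 lower in WT aTreg, 0 to 1 higher and 2 to 7 lower in Foxp1 cKO aTreg, and medians of 0.0928 to 0.225 (genotype, rTreg), 0.0686 to 0.1343 (genotype, aTreg), -0.0325 to -0.0079 (subset, WT), -0.2071 to -0.0563 (subset, Foxp1 cKO) and -0.1827 to -0.0120 (difference of genotype effects). The WT subset median was -0.0129 (limma-voom), -0.0233 (median of ratios), -0.0109 (no filter) and -0.0280 (length trend removed), and turned to 0.0274 and 0.0310 on log2 FPKM plus 1 and plus 0.1 (0.0274 with no filter). The other 4 medians kept their sign. Mrps18b between genotypes in rTreg turned to -0.0141 (DESeq2), -0.0098 (median of ratios), -0.0152 (no filter), -0.0186, -0.0208 and -0.0186 (FPKM) and -0.0246 (length trend removed), and Mrps36 to -0.0190 (length trend removed). Leaving out libraries took that difference to between -0.2453 and 0.2229 for Mrps18b, -0.0678 and 0.1334 for Mrps36 and -0.0083 and 0.3087 for Mrpl12. The replicate block changed no call in aTreg between genotypes or in the difference of genotype effects. The choice to leave out both Foxp1 cKO replicate 1 libraries was made after seeing the data.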

Other observations

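The 4 genes left out as pseudogenes were counted at 14 to 301 reads over the 8 libraries, the most for Mrpl23-ps1, which shares a name with the member Mrpl23. Of the 77 members, 32 share exon bases with another gene on either strand, and 6 share over 25% of theirs: Mrps34, Mrps25, Mrpl19, Mrpl43, Mrps18b and Mrpl24.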
